A study of Mus musculus with 6 samples.

Results

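Des, Vim, Acta2, Pdgfra, Pdgfrb, Cspg4 and Fbln1 are genes used as markers of mesenchymal cells, of pericytes, of myofibroblasts and of the mesangial cells of the kidney glomerulus. They were taken by gene name from the deposited expression table, which lists all 7 of them among 9120 genes. The cells were MPC5, a conditionally immortalised mouse podocyte line, in high glucose (30 mM). Per the labels, they were grown at 33 °C with interferon gamma and kept for 7 days at 37 °C without it, and siRNA was left on them for 6 h. Of the 6 RNA sequencing libraries, 3 came from cells given siRNA against Mettl3 (knockdown, replicates 1 to 3) and 3 from cells given scrambled siRNA (control, replicates 1 to 3). High glucose, the line and the transfection were shared by both groups, and no normal-glucose library is analysed here. Every library comes from the same immortalised line, and siRNA lowers a transcript without removing it. Replicate 3 of both groups carries a title code of another form than replicates 1 and 2, and these 2 libraries stood apart from the other 4 in many genes, so each marker was compared both between knockdown and control and between replicate 3 and replicates 1 and 2. All 6 libraries are labelled as high glucose, but what the codes stand for was not given, so differences of replicate 3 cannot be told apart from a difference in batch, in glucose or in whatever else the codes may record.

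Vimentin and desmin, encoded by Vim and Des, are intermediate filament proteins; vimentin is found throughout mesenchymal cells and desmin mostly in muscle, and desmin staining is used as a sign of injury in rodent podocytes. Acta2 encodes smooth muscle alpha actin, the actin of contractile cells and of myofibroblasts. Pdgfra and Pdgfrb encode the receptor tyrosine kinases for platelet-derived growth factors (PDGF), and in the glomerulus signalling through the beta receptor is known for the recruitment of mesangial cells. Cspg4 encodes the NG2 proteoglycan of pericytes, and Fbln1 encodes fibulin-1, a glycoprotein of elastic fibres and basement membranes.

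Levels are FPKM as the authors deposited them, which are fragments counted relative to transcript length and to the depth of the library. The unit corrects for transcript length, so genes can be set side by side. The number of reads behind them is unknown. Library sums of FPKM lay between 173721 and 176526. The knockdown target Mettl3 was lower in every knockdown library than in any control (3.81 ± 0.114 FPKM in knockdown and 5.99 ± 0.311 FPKM in control, SD, n = 3 each), and did not pass the test over all genes (limma adjusted p = 0.799). Differences are in log2(FPKM + 1), where the pseudocount of 1 makes the change of a low gene look smaller. Adjusted p-values are Benjamini-Hochberg values over the 8047 genes with at least 1 FPKM in 3 or more libraries. All 7 markers passed that filter, and a gene was called at an adjusted p under 0.05.

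Vim was by far the most abundant of the markers. Its mean over the 6 libraries was 712 FPKM, rank 11 of the table's 9120 genes. Pdgfrb (33.9 FPKM), Acta2 (29.9 FPKM) and Fbln1 (16.9 FPKM) formed a middle tier, each above at least 77.5% of the genes listed. Cspg4 (1.90 FPKM), Pdgfra (1.72 FPKM) and Des (1.33 FPKM) were low transcripts, with between 17.7% and 24.2% of the listed genes below them. The step from Vim to Pdgfrb was 21.01-fold and that from Fbln1 to Cspg4 was 8.90-fold, and at both steps the ranges of the 6 libraries did not overlap. Neighbours within a tier overlapped in their ranges over the 6 libraries, so Pdgfra was separated neither from Cspg4 nor from Des. The overlap of Acta2 with Pdgfrb came from replicate 3. In replicates 1 and 2 of both groups Acta2 (14.5 to 17.3 FPKM) lay below Pdgfrb (34.05 to 38.48 FPKM). In replicate 3 it lay above Pdgfrb, at 58.8 against 28.91 FPKM in knockdown and 56.75 against 30.73 FPKM in control. Acta2 overlapped with Fbln1 in replicates 1 and 2, and no library had a level near its mean of 29.9 FPKM. Pdgfrb did lie above Fbln1 without overlap, and Cspg4 was above Des in every library although their ranges overlapped. Every Pdgfrb value exceeded its library's Pdgfra value, by 15.3-fold in control replicate 1 to 31.5-fold in knockdown replicate 2.

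**Figure D1:**
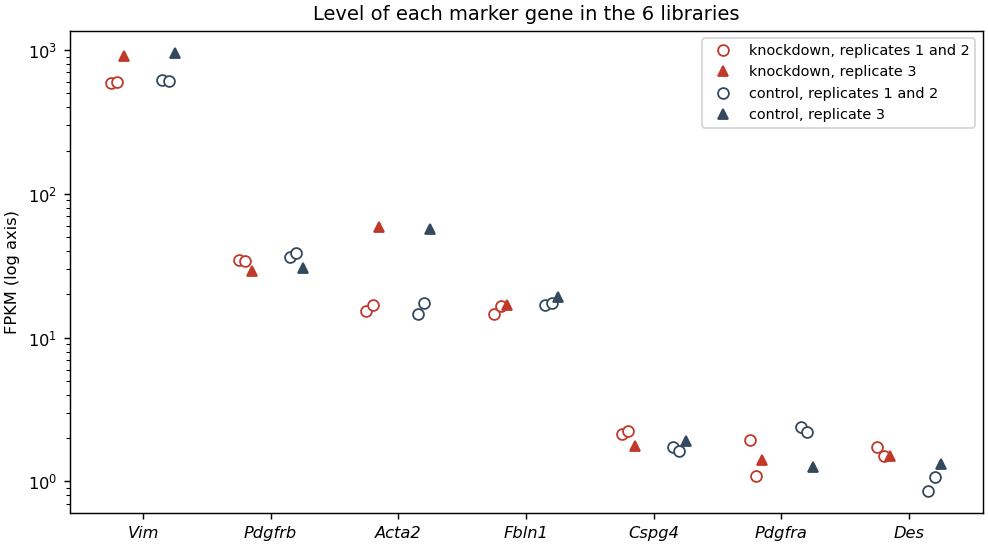
FPKM (log axis) of the 7 markers in each library, ordered by mean level; knockdown libraries are left of control libraries, and triangles mark replicate 3. Vim lies at 594 FPKM or above in every library, Cspg4, Pdgfra and Des lie below 2.4 FPKM, and the triangles of Acta2 (56.8 and 58.8 FPKM) stand above its circles (14.5 to 17.3 FPKM).

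The table was also checked for the markers of other cells. Of the 22 podocyte genes looked for, 8 were listed. The lowest of these 8 were Wt1, the podocyte transcription factor, at 0.372 to 0.714 FPKM and Synpo, an actin-associated podocyte gene, at 0.328 to 1.25 FPKM. The highest were Actn4 at 104 to 113 FPKM and Vegfa at 48.2 to 66.9 FPKM. Kirrel was at 13.6 to 22.2 FPKM. Of 28 fibroblast and mesenchymal genes 20 were listed, led by S100a4 (3517 to 4212 FPKM) and Col1a1 (1464 to 3285 FPKM). Of 13 pericyte genes 2 were listed (Angpt1 and Ndufa4l2), and of 19 mesangial genes 8. Of 20 epithelial genes 4 were listed, among them the keratin gene Krt8 at 1.04 to 1.42 FPKM and Tjp1 at 44.3 to 54.0 FPKM. The 13 endothelial genes gave 3 and the 13 immune genes gave Csf1r alone, at 0.121 to 1.097 FPKM.

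Acta2 had the largest difference of the 7 markers, and it lay between replicate 3 and the other libraries. It measured 58.8 FPKM in knockdown replicate 3 and 56.8 FPKM in control replicate 3. In replicates 1 and 2 it measured 15.3 and 16.7 FPKM with knockdown, and 14.5 and 17.3 FPKM in control. Both replicate 3 libraries were therefore far above the other 4, whose values lay close together whether or not Mettl3 was knocked down. The ratio was 3.67 within the knockdown group and 3.57 within the control group, and the log2 difference between replicate 3 and replicates 1 and 2, with the knockdown accounted for, was 1.80 (SE 0.086, limma adjusted p = 3.83e-04). Acta2 was called in all 15 other settings tried, with differences of 1.75 to 1.88 and adjusted p-values of 1.40e-04 to 0.0112. Since these are bulk libraries, more cells that express a gene and more RNA per cell cannot be told apart. Between knockdown and control Acta2 averaged 30.3 ± 24.7 FPKM in knockdown and 29.5 ± 23.6 FPKM in control (SD, n = 3 each), spreads that are set by replicate 3. With the title code as a covariate the log2 difference was 0.03, with a 95% interval of -0.17 to 0.22. Acta2 is 1 of several near-identical actin genes, and its level is uncertain as far as reads of the others could be assigned to it.

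The Acta2 gene (ENSMUSG00000035783.8, protein-coding) is on the minus strand of chromosome 19 of GRCm38, from 34241090 to 34255336 in the table and to 34255590 in GENCODE M21. Its promoter is shown because elements close to the start site are its best known control elements, beside the promoter of Vim, the other marker that was higher in replicate 3. The windows run from 250 bases before to 50 after the start site (RefSeq, GRCm38.p6), at chr19:34255324-34255623 on the minus strand and at chr2:13574061-13574360 on the plus strand. Capitals mark CArG boxes with 1 mismatch in the inner bases (the element bound by serum response factor) and the letters CATTCC on either strand (the core of the MCAT element bound by TEAD factors).

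Acta2: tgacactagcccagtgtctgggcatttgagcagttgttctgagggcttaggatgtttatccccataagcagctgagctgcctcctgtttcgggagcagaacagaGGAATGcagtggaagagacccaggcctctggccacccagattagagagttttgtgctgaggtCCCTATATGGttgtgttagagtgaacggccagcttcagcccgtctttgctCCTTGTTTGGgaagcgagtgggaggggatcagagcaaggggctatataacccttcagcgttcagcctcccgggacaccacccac

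Vim: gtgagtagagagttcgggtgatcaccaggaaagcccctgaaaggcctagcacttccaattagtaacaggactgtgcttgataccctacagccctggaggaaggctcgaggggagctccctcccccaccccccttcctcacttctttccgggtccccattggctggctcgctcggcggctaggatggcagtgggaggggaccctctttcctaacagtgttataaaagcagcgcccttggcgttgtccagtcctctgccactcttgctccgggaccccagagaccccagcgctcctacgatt

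The Acta2 window held 2 CArG boxes with 1 mismatch, with their first bases at -84 and -34 from the RefSeq start site. It also held 1 CATTCC on the opposite strand, with its first base at -146. These positions hold for that start site only, since the expression table and GENCODE M21 begin the gene elsewhere (at 34255336 and 34255590). None of the matches overlap. The window of Vim held none of these letters, and neither did those of Des, Pdgfra, Cspg4 and Fbln1, so 1 of the 6 markers with a promoter in the RefSeq table had a match. The lack of a match also holds for the RefSeq start sites only. The whole Vim window (from 13574061) lies after the start of the gene in the expression table and in GENCODE M21 (13573927). Among all 32851 promoters of that length 8.50% held a CArG box with 1 mismatch, 1.63% a CArG box without one, which no marker's window had, and 14.7% held CATTCC. A match describes letters and is no evidence of binding in these cells.

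Vim was also higher in replicate 3. It measured 904 FPKM in knockdown replicate 3 and 952 FPKM in control replicate 3, against 594 and 598 FPKM in knockdown replicates 1 and 2 and 622 and 606 FPKM in control replicates 1 and 2. Its 2 replicate 3 values did not overlap with the other 4, which spread by an SD of only 12.4 FPKM around 605 FPKM. The mean was 1.53-fold higher in replicate 3, with a log2 difference of 0.62 (SE 0.037, limma adjusted p = 6.43e-04). The call was made in all 15 other settings (adjusted p of 4.38e-04 to 0.0159), but with quantile normalization the difference was 0.35. Between knockdown and control, Vim averaged 698 ± 178 FPKM in knockdown and 726 ± 195 FPKM in control (SD, n = 3 each). In each numbered pair the knockdown library was the lower, by less than 50 FPKM, and the log2 difference of -0.05 had a 95% interval of -0.14 to 0.03 with the title code as a covariate. Vim (ENSMUSG00000026728.9) lies on the plus strand of chromosome 2, from 13573927 to 13582826.

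**Figure D2:**
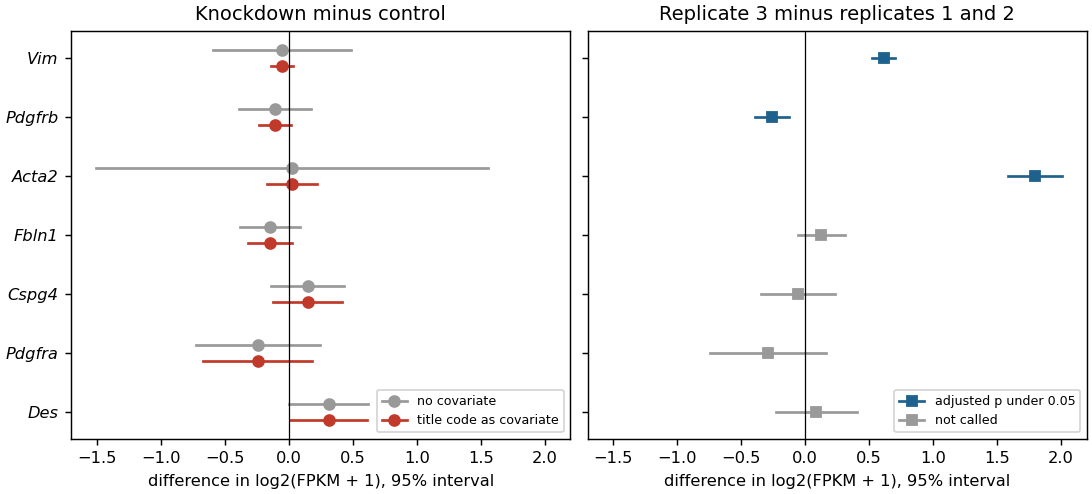
Difference in log2(FPKM + 1) with its 95% interval (limma) for each marker, knockdown minus control in the left panel and replicate 3 minus replicates 1 and 2 in the right panel. Acta2 (1.80) and Vim (0.62) lie to the right of 0 and Pdgfrb (-0.26) to the left in the right panel, while in the left panel the title code as a covariate narrows the intervals of Acta2 and Vim around the same estimates.

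Des, the other intermediate filament gene, was called in neither comparison and was the 1 marker whose knockdown and control libraries did not overlap. It measured 1.728, 1.51 and 1.498 FPKM in knockdown replicates 1 to 3, and 0.857, 1.08 and 1.32 FPKM in control replicates 1 to 3. The lowest knockdown value was thus close to the highest control value, and both of these came from replicate 3. The means were 1.58 ± 0.130 FPKM in knockdown and 1.09 ± 0.232 FPKM in control (SD, n = 3 each), 45.4% higher in knockdown. The log2 difference was 0.31 (SE 0.13, limma adjusted p = 0.998). An exact two-sided permutation test gave p = 0.1, which is the lowest value possible with 3 against 3. With the title code as a covariate the same difference had a 95% interval of 0.01 to 0.61, which leaves out 0 (limma adjusted p = 0.398). No other setting called Des (adjusted p from 0.384 upward over 16 settings). Groups that do not overlap were seen in 10.1% of all tested genes, and 1 of 7 markers is near that share. The replicate 3 difference of Des was 0.09 (95% interval -0.23 to 0.40). Des (ENSMUSG00000026208.9, chromosome 1, 75360329 to 75368579, plus strand) shares exonic sequence with the antisense gene Gm15179; the sources used here do not say whether counting used strand, so its low reads cannot be told apart from those of Gm15179.

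Of the PDGF receptors, Pdgfrb was lower in replicate 3. It measured 28.9 FPKM in knockdown replicate 3 and 30.7 FPKM in control replicate 3. Knockdown replicates 1 and 2 had 34.9 and 34.0 FPKM and control replicates 1 and 2 had 36.4 and 38.5 FPKM. Replicate 3 was below the other libraries in both groups, at 0.839 of the level of replicates 1 and 2 with knockdown and at 0.820 of it in control. The log2 difference was -0.26 (SE 0.055, limma adjusted p = 0.0245). This call was lost in 8 of the 15 other settings, among them median scaling (-0.18, adjusted p = 0.0655) and the leaving out of any library other than control replicate 1, and the adjusted p ranged from 0.0183 to 0.163. The direction was the same in all 15. Between knockdown and control Pdgfrb averaged 32.6 ± 3.23 FPKM in knockdown and 35.2 ± 4.02 FPKM in control (SD, n = 3 each; log2 difference -0.11, SE 0.12). Pdgfrb (ENSMUSG00000024620.11) lies on the plus strand of chromosome 18, from 61045150 to 61085061.

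Pdgfra was listed at 1.95, 1.08 and 1.40 FPKM in knockdown replicates 1 to 3 and at 2.38, 2.21 and 1.27 FPKM in control replicates 1 to 3. The groups overlapped, and within each group the values spread widely for so low a transcript. Its means were 1.48 ± 0.440 FPKM in knockdown and 1.95 ± 0.598 FPKM in control (SD, n = 3 each). The log2 difference was -0.24 (95% interval -0.73 to 0.24, or -0.67 to 0.18 with the title code as a covariate). The replicate 3 difference was -0.29 (95% interval -0.75 to 0.16) and was not called. Single libraries weighed heavily on both: the knockdown difference was -0.13 without knockdown replicate 2 and -0.42 without control replicate 3, and the replicate 3 difference was -0.04 without control replicate 3 and -0.54 without knockdown replicate 3. The gene (ENSMUSG00000029231.15, chromosome 5, 75152292 to 75198215, plus strand) overlaps the exons of Gm42802 and Gm42803 on the opposite strand and of Mir7025 on its own.

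Cspg4 (ENSMUSG00000032911.6, chromosome 9, 56865033 to 56899870, plus strand) had 2.15, 2.25 and 1.76 FPKM in knockdown replicates 1 to 3, and 1.73, 1.63 and 1.89 FPKM in control replicates 1 to 3. The knockdown library was the higher in pairs 1 and 2 and the lower in pair 3. The log2 difference between knockdown and control was 0.15 (95% interval -0.14 to 0.43, or -0.13 to 0.42 with the title code as a covariate). The test of whether this difference was other in replicate 3 than in the other pairs did not pass (log2 interaction -0.33, SE 0.21, limma adjusted p = 0.994). The replicate 3 difference of Cspg4 was -0.05 (95% interval -0.34 to 0.24). Fbln1 (ENSMUSG00000006369.14, chromosome 15, 85205949 to 85286535, plus strand) had 14.6, 16.7 and 16.8 FPKM with knockdown, and 16.7, 17.5 and 19.2 FPKM in control. In each numbered pair the knockdown value was the lower, and the groups overlapped. Its log2 difference was -0.15 (95% interval -0.38 to 0.09, or -0.32 to 0.03 with the title code as a covariate). Its replicate 3 difference was 0.13 (95% interval -0.06 to 0.31). For neither gene did any setting give a call in either comparison.

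Counted together, 0 of the 7 markers were called between knockdown and control, where 0% of all tested genes were called (0 of 8047, limma). At an unadjusted p under 0.05 there were 366 genes and none of the markers in the fit without a covariate. With the title code as a covariate Des was under it (limma unadjusted p = 0.0442, adjusted p = 0.398). The share of all genes under it in that fit was not counted, so this is no result about Des. Between replicate 3 and replicates 1 and 2, 2 of the 7 markers were higher, where 6.23% of all tested genes were called higher. Pdgfrb was the 1 marker called lower, where 12.6% of all genes were. The split of calls over all genes depends on scaling. Of 1513 calls 33.1% were higher in replicate 3, against 52.8% with median scaling and 46.3% with quantile normalization. The calls numbered 343 without control replicate 3, 362 without knockdown replicate 3 and 923 without knockdown replicate 1. The test of whether the knockdown difference differed in the replicate 3 pair called none of the markers and 0.0497% of all genes.

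The genes most like each marker were found by the root mean square difference between log2 profiles over the 6 libraries, each gene centred on its own mean, among 6641 named genes of at least 2 FPKM. For Acta2 these were Col12a1 (0.0908), which encodes a fibril-associated collagen, and Tnn (0.117), which encodes the matrix glycoprotein tenascin-N. Col12a1 had 148 FPKM in knockdown replicate 3 and 158 FPKM in control replicate 3, against 43.7 and 44.9 FPKM in knockdown replicates 1 and 2 and 46.0 and 46.1 FPKM in control replicates 1 and 2. Tnn had 14.01 FPKM in knockdown replicate 3 and 14.3 FPKM in control replicate 3, and 3.45 to 4.28 FPKM in the other 4 libraries. Both, like Acta2, had their highest values in the 2 replicate 3 libraries. Vim was closest to Acly (0.0318), the ATP citrate lyase gene, and to Pank3 (0.0345), a pantothenate kinase gene. Pdgfrb was closest to Ino80 (0.0172) and Akap6 (0.0239), and Pdgfra to Hook2 (0.0377) and Simc1 (0.0474). Des was closest to Alad (0.0508) and Unc5c (0.0531), Cspg4 to Atic (0.018) and Ttc8 (0.0252), and Fbln1 to Aars (0.0331) and Dgkd (0.0367). With 6 points that share libraries, such likeness is a description.

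**Figure D3:**
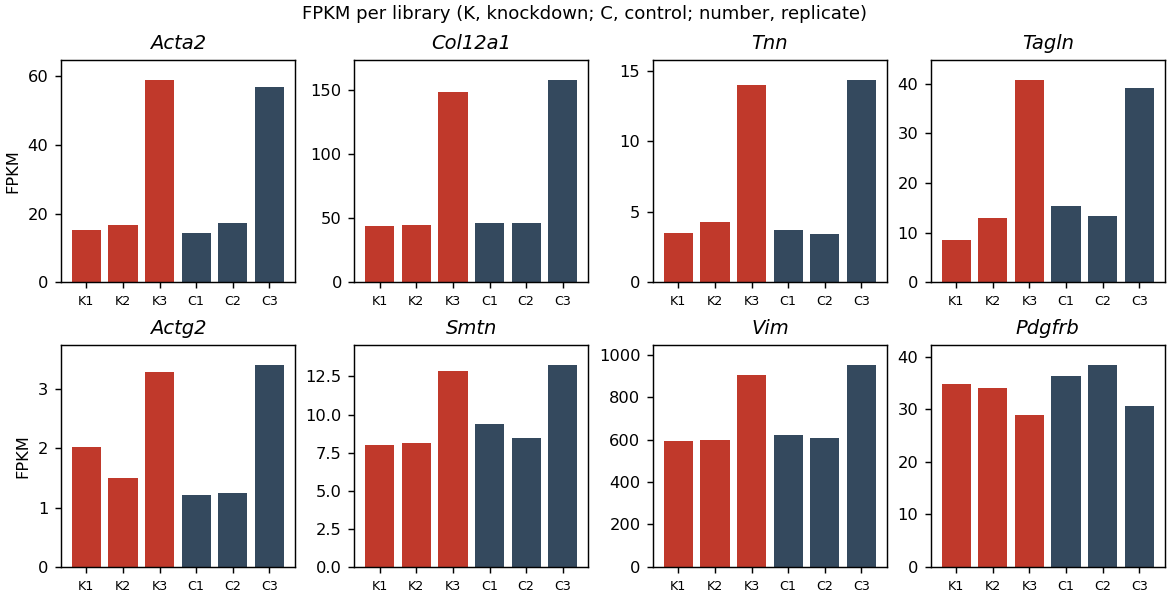
FPKM in each library (K, knockdown; C, control; the number is the replicate) of Acta2, its closest profiles Col12a1 and Tnn, the contractile genes Tagln, Actg2 and Smtn, and Vim and Pdgfrb. The first 7 genes are highest in K3 and C3 (58.8 and 56.8 FPKM for Acta2), and Pdgfrb is lowest there (28.9 and 30.7 FPKM). Tagln, Actg2 and Smtn are the 3 contractile genes called higher in replicate 3 of 17 tested. Myh11 and Itga1, which were called lower, are not drawn.

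Of 23 names of contractile genes other than Acta2 looked for, 17 were tested. The names Mrtfa and Mrtfb were not found, but they stand for Mkl1 and Mkl2, which were tested. Of the 17, 3 were called higher in replicate 3 and 2 lower, where 6.23% of all genes were called higher and 12.6% lower. The 2 lower of 17 are near the share of all genes. Tagln, which encodes the smooth muscle protein transgelin, had 40.7 FPKM in knockdown replicate 3 and 39.1 FPKM in control replicate 3, and 8.45 to 15.4 FPKM in the other 4 libraries (log2 difference 1.62, limma adjusted p = 0.00355). Actg2, the smooth muscle gamma actin gene, had 3.29 FPKM in knockdown replicate 3 and 3.41 FPKM in control replicate 3, and 1.22 to 2.02 FPKM elsewhere (0.81, adjusted p = 0.0114). Smtn, the smoothelin gene, was also higher (0.57, adjusted p = 0.00612). The smooth muscle myosin gene Myh11 was lower, at a mean of 4.16 FPKM in replicate 3 and 7.32 FPKM in replicates 1 and 2 (-0.68, adjusted p = 0.0188), and so was the integrin gene Itga1 (-0.42, adjusted p = 0.0402). The tropomyosin gene Tpm2 had 262 to 279 FPKM in replicate 3 and 260 to 290 FPKM in the others. The median of the 17 was 0.09, beside -0.06 over all genes. Median scaling called 5 higher and 1 lower (776 and 695 of all 8047 genes), and quantile normalization 3 and 1 (641 and 744 of all genes). Between knockdown and control none of the 17 was called. The smallest p was that of Tpm1, at 67.8 ± 2.29 FPKM in knockdown and 55.9 ± 1.18 FPKM in control (SD, n = 3 each; log2 difference 0.27, SE 0.072, limma adjusted p = 0.998).

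Intermediate filament and lamin genes beside Vim and Des gave 6 tested of 16, of which 2 were called higher and 1 lower in replicate 3 (6.23% and 12.6% of all genes). Cryab, whose small heat shock protein binds intermediate filaments, was higher in replicate 3, with 4.40 FPKM in knockdown and 3.71 FPKM in control there and 0.354 to 1.67 FPKM elsewhere (log2 difference 1.39, limma adjusted p = 0.00856). The nuclear lamin gene Lmna was higher (0.24, adjusted p = 0.0135). Lmnb1 was lower, with 3.90 FPKM in knockdown replicate 3 and 5.04 FPKM in control replicate 3, and 7.59 to 12.3 FPKM elsewhere (-0.98, adjusted p = 0.00236). Median scaling called 3 of the 6 higher and 1 lower (776 and 695 of all 8047 genes). No gene of this list was called between knockdown and control.

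Among the ligands of the PDGF receptors, Pdgfa and Pdgfc were tested, and Pdgfb and Pdgfd are not analysed here. Pdgfc was higher in replicate 3, with 31.3 FPKM in knockdown and 28.1 FPKM in control there, against 16.6 and 15.9 FPKM in knockdown replicates 1 and 2 and 13.7 and 13.6 FPKM in control replicates 1 and 2 (log2 difference 0.95, limma adjusted p = 8.79e-04). Its step was opposite in direction to that of Pdgfrb, whose call was lost in 8 of 15 other settings, and to the uncalled difference of Pdgfra (-0.29). A relation between ligand and receptor levels was not tested. Pdgfa averaged 28.4 ± 3.81 FPKM in knockdown and 22.5 ± 3.76 FPKM in control (SD, n = 3 each), with a log2 difference of 0.33 that was not called. Of all 18 ligand and signalling genes tested, 3 were called higher in replicate 3 (Pdgfc, Plcg1 and Src) and 2 lower (Stat3 and Rasa1), beside 6.23% and 12.6% of all genes, so that the lower calls were near the share of all genes. The list had a median of -0.03, which turned to 0.05 with median scaling and to 0.00 with quantile normalization. Stat3 had the largest fall, to 19.0 FPKM in knockdown and 18.4 FPKM in control replicate 3, against 28.0 to 32.5 FPKM elsewhere (-0.67, adjusted p = 0.00233). The adaptor genes Crkl and Crk had the smallest unadjusted p-values between knockdown and control, at 21.4 ± 0.382 and 64.3 ± 9.26 FPKM in knockdown and 18.1 ± 1.41 and 52.5 ± 2.72 FPKM in control (SD, n = 3 each), and none of the 18 was called.

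Fibulin and elastic fibre genes other than Fbln1 gave 15 tested of 23, of which 5 were called higher and 2 lower in replicate 3 (6.23% and 12.6% of all genes); the lower calls were near the share of all genes. Fbln2, the fibulin-2 gene, was higher, at a mean of 26.8 FPKM in replicate 3 and 18.1 FPKM in replicates 1 and 2 (log2 difference 0.54, limma adjusted p = 0.00371), while Fbln1 was not called. The nidogen genes Nid1 (0.67) and Nid2 (0.75) and the lysyl oxidase genes Lox (0.74) and Loxl2 (0.41) were higher as well. Fbn1, the fibrillin-1 gene, was lower, with 63.9 FPKM in knockdown replicate 3 and 61.4 FPKM in control replicate 3 and 84.5 to 90.3 FPKM elsewhere (-0.47), and Loxl1 was lower (-0.41). With median scaling 7 were called higher and 2 lower (776 and 695 of all 8047 genes), and with quantile normalization 6 and 2 (641 and 744). Between knockdown and control none was called. Lox had 66.8, 67.4 and 96.2 FPKM in knockdown replicates 1 to 3 and 35.2, 39.4 and 74.0 FPKM in control replicates 1 to 3, higher with knockdown in each numbered pair (log2 difference 0.68, SE 0.29, limma adjusted p = 0.998). Fbln5, the fibulin-5 gene, averaged 36.9 ± 5.33 FPKM in knockdown and 26.4 ± 5.69 FPKM in control (SD, n = 3 each; 0.48, not called).

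Of 20 fibroblast and mesenchymal genes tested, 5 were called higher in replicate 3 and 4 lower, beside 6.23% and 12.6% of all genes. Median scaling gave 7 and 4, beside 776 and 695 of all 8047 genes. The 5 were the collagen genes Col3a1, Col1a2 and Col1a1, the matrix protein gene Sparc and the cadherin gene Cdh11. Col3a1 had 794 FPKM in knockdown replicate 3 and 673 FPKM in control replicate 3, against 364 and 382 FPKM in knockdown replicates 1 and 2 and 267 and 254 FPKM in control replicates 1 and 2 (log2 difference 1.23, limma adjusted p = 6.19e-04). The 4 lower genes were Snai2 (-0.58), Twist1 (-0.45) and Twist2 (-0.64), which encode transcription factors of epithelial to mesenchymal transition, and Cd44 (-0.33). Twist1 had 67.6 FPKM in knockdown replicate 3 and 68.9 FPKM in control replicate 3, and 88.7 to 97.7 FPKM in the other 4. Snai2, Twist1, Twist2, Cd44, Cdh11, Fbln2, Loxl1, Loxl2, Myh11, Itga1, Plcg1, Src and Gata3 were named after their values were seen. None of the 20 was called between knockdown and control. The collagen-binding receptor gene Ddr2 averaged 20.6 ± 2.71 FPKM in knockdown and 26.0 ± 1.30 FPKM in control (SD, n = 3 each), with a log2 difference of -0.33 (SE 0.11).

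Among the 8 mesangial genes tested, 2 were called higher and 1 lower in replicate 3, beside 6.23% and 12.6% of all genes; the single lower call is near the share of all genes. Igfbp5, which encodes an insulin-like growth factor binding protein, had 49.0 FPKM in knockdown replicate 3 and 48.8 FPKM in control replicate 3, and 8.71 to 10.4 FPKM elsewhere (log2 difference 2.26, limma adjusted p = 1.79e-04). Adamts1, a secreted protease gene, was also higher (1.52, adjusted p = 0.00121). Serpine2, a serine protease inhibitor gene, was lower (-0.87, adjusted p = 0.00291). The transcription factor gene Gata3, a mesangial marker, averaged 2.31 FPKM in replicate 3 and 3.66 FPKM in the other 4 libraries, and was not called. Of the 2 pericyte genes tested Ndufa4l2 was called higher (0.44, adjusted p = 0.00785), beside 6.23% of all genes. Angpt1 went the other way (-0.25) and was not called.

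**Figure D4:**
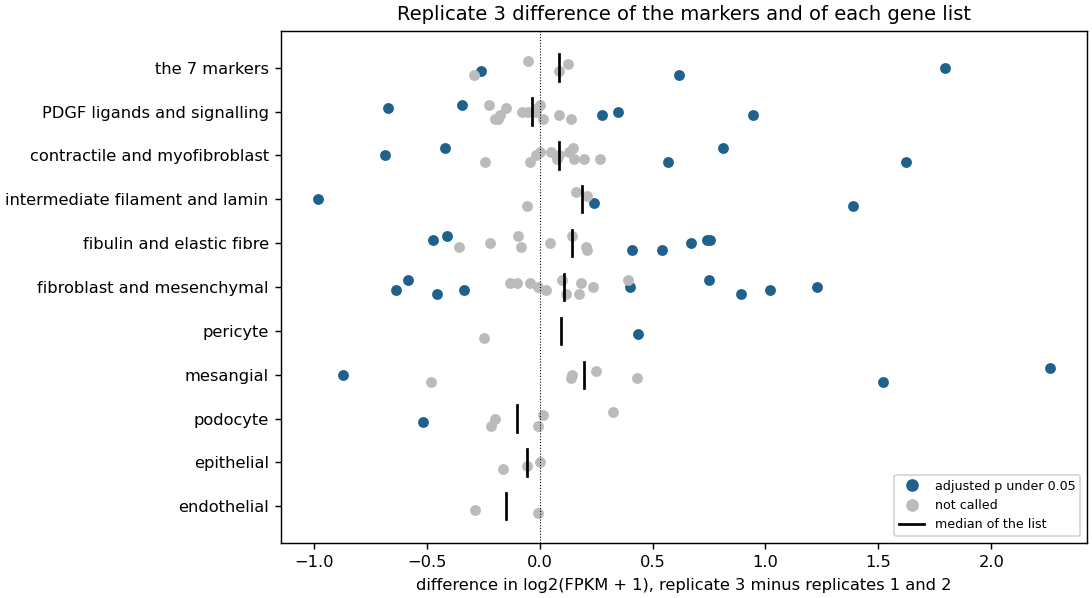
Difference in log2(FPKM + 1) between replicate 3 and replicates 1 and 2 for the 7 markers and for each tested gene of 10 lists; blue points were called, and bars mark medians. Calls lie on both sides of 0 among the 7 markers and in the PDGF, contractile, intermediate filament, fibulin, mesenchymal and mesangial lists. Acta2 (1.80) and Igfbp5 (2.26) are the farthest to the right in their rows. The medians are those without further scaling, under which the PDGF median is -0.03 (0.05 with median scaling).

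The summed levels of the fibroblast, mesangial and pericyte lists were higher in replicate 3, as Acta2 and Vim were, and a few genes carried them. The 20 listed fibroblast and mesenchymal genes summed to 10250 to 10440 FPKM in replicate 3 and to 7034 to 7574 FPKM in replicates 1 and 2; Col1a1 alone averaged 3199 FPKM and 1738 FPKM there, and the list's median log2 difference was 0.11. The 8 mesangial genes summed to 141 to 144 FPKM in replicate 3 and to 76.0 to 91.1 FPKM in the others, and the 2 pericyte genes to 61.9 to 68.0 FPKM and to 49.8 to 51.7 FPKM. The means of Igfbp5 were 48.9 FPKM in replicate 3 and 9.45 FPKM in the others, and those of Adamts1 were 30.9 and 10.2 FPKM. Angpt1 averaged 6.81 FPKM in replicate 3 and 8.29 FPKM in the others, so the pericyte sum was carried by Ndufa4l2 (58.1 and 42.7 FPKM). Podocyte genes summed to 198 to 203 FPKM in replicate 3 and to 200 to 224 FPKM in the others. Epithelial genes summed to 48.6 to 49.5 FPKM and to 50.2 to 56.8 FPKM, and endothelial genes to 12.4 to 15.2 FPKM and to 11.9 to 16.5 FPKM. Most of the podocyte sum was Actn4 (means of 109.6 and 108.6 FPKM) and Vegfa (56.1 and 56.9 FPKM). Most of the epithelial sum was Tjp1 (44.9 and 50.3 FPKM). Most of the endothelial sum was Eng (11.3 and 11.4 FPKM), which is on the mesenchymal list as well. The immune gene Csf1r was at 0.121 to 0.299 FPKM in replicate 3 and at 0.838 to 1.097 FPKM in the others. The part of other cell types in the marker differences was not tested. Of the 6 podocyte genes tested 1 was called lower in replicate 3, which is near the 12.6% of all genes. It was Kirrel, which encodes a slit diaphragm protein (log2 difference -0.52, limma adjusted p = 0.00775). None of the 3 epithelial and 2 endothelial genes tested was called.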

How the data were processed

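The authors deposited FPKM per gene for 6 libraries, per the file headers. HISAT2 2.0.4, StringTie 1.2.2, cutadapt 1.17, FastQC 0.11.7 and R 2.10.0 are listed in the submitters' processing notes, without role or order, with the build mm9, but 8377 of the 9110 genes matched by identifier to GENCODE M21 have its span on GRCm38, whose coordinates are given. The sources used here do not say how reads were shared between actin paralogs or overlapping genes, so levels of Acta2 and Actg2 are uncertain to that extent. In 784 single-transcript genes at most 21.3% of the 150 lowest values per library were whole read multiples (tolerance 0.05; 10% by chance for 1 trial step), so depth was not recovered. Between 74 and 118 genes per library are listed at 0, none of them a marker.

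In R 4.3.3, limma 3.58.1 was run on log2(FPKM + 1) (intensity trend, two-sided), first with the knockdown alone, then replicate 3 against replicates 1 and 2 with the knockdown as a term, then with an interaction. The code was tested on simulated data. Replicates are biological per the series' design text; p-values measure the spread between these libraries. Same-numbered libraries correlated in their deviations from group means at 0.231, 0.196 and 0.558 (numbers 1 to 3), but knockdown 1 with control 2 (0.257) and knockdown 2 with control 1 (0.226) did so as well. Only number 3 stood apart as a pair; a replicate block was fitted as an alternative, since every same-numbered value passed 0.1. Other alternatives were the title code as a covariate, the HG-coded libraries alone, pseudocounts of 0.1 and 0.5, no filter or one at 5 FPKM, median or quantile scaling, a robust variance, 0 as missing, and leaving out each library.

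Markers and lists were chosen with earlier results of these data known. Named genes are the 7 markers, then per list those with the smallest p in either comparison (up to 3 each) or the highest level (up to 2), given where they add to the account, then the 2 closest profiles per marker; Wt1, Synpo and Csf1r were added to check the labelled cell type, and other exceptions are stated.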

Additional observations from a re-analysis of the deposited data

How the results depend on the processing

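Between knockdown and control no setting called a marker, and the count of genes called was 0 with the replicate block, 2 within the HG-coded libraries and 1 with a robust variance without trend. It was 0 to 2 when each library was left out. The replicate block changed no call. The count between replicate 3 and replicates 1 and 2, 1513, was 343 to 1204 without each library in turn; where 1 replicate 3 library remained, it was assumed to vary like the others. Acta2 and Vim were called in all 15 settings of that comparison and Pdgfrb in 7. Alternatives were run for the 7 markers and the counts of calls. Among the markers' log2 differences, those that turned were 0.09 or smaller in size as reported. For knockdown minus control, Acta2 ranged from -0.58 to 0.62 and Vim from -0.25 to 0.16 without each library, where replicate 3 then weighs unequally. For replicate 3, Cspg4 was 0.0039 with median scaling and 0.026 with quantile normalization, and -0.22 to 0.11 without each library, and Des was -0.067 to 0.24. The filter at 5 FPKM removed Des, Pdgfra and Cspg4. The unknown depth leaves no counting error for these 3 low transcripts.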

Other observations

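Cytoplasmic actin genes were also looked at, chosen after their values were seen. Actb, the cytoplasmic beta actin gene, had 1258, 1204 and 1628 FPKM in knockdown replicates 1 to 3 and 1755, 1814 and 1450 FPKM in control replicates 1 to 3. The knockdown library was the lower in pairs 1 and 2 and the higher in pair 3, and Actb was called neither for the knockdown (log2 difference -0.30, SE 0.14, limma adjusted p = 0.998) nor for replicate 3 (0.05, SE 0.15, adjusted p = 0.830). Actg1, the cytoplasmic gamma actin gene, was highest in both replicate 3 libraries and averaged 117 FPKM in replicate 3 and 93.3 FPKM in replicates 1 and 2 (0.33, SE 0.11, adjusted p = 0.0855).

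Des and Vim encode intermediate filament subunits. Vim was called higher in replicate 3, as were 6.23% of all tested genes. Des did not overlap between knockdown and control, as did 10.1% of all tested genes, and was not called. The Vim to Des ratio of levels was 344, 396 and 603 in knockdown replicates 1 to 3 and 726, 561 and 720 in control replicates 1 to 3, so the groups overlapped in it.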
